A study of Mus musculus with 58 samples.

Results

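Line 20b is a line of CUGexp transgenic mice on the FVB background, and its quadriceps muscle is set here against that of FVB wild-type mice. The arrays were chosen by title: those of experiment 1 titled as line 20b (6 of type 430A and 6 of type 430B) and those titled as FVB wild type (6 and 6), which is 24 of the 58 arrays of the series and 12 of its 34 mice. The number in a title joined the 2 arrays of a mouse. All 12 mice were male, 6 months old and untreated apart from the transgene. Line 41, another CUGexp line on the same background (6 male mice, 6 months old), stayed in the fit for its estimate of the spread and serves once as a comparison. The study asked how toxic RNA in myotonic dystrophy changes muscle transcripts. The labels give neither the promoter nor the repeat length of the transgene. As background, line 20b is known as a skeletal actin transgene that carries a long CTG repeat and is read in muscle fibres, and since a transgenic line is usually 1 insertion, effects of the repeat and of the insertion site cannot be told apart within it.

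Myotonic dystrophy of type 1 is caused by a CTG repeat in a kinase gene, whose RNA carries the repeat as CUG, stays in the nucleus and binds muscleblind proteins. Muscleblind proteins switch many muscle transcripts from fetal to adult splicing, and their loss leaves fetal forms in adult fibres. The chloride channel Clcn1 is such a transcript, and too little of it gives myotonia, the slow relaxation of an electrically restless fibre. The arrays read transcript levels through short probes, mostly near the end of a transcript, and a probe set can also move when splicing moves the probed sequence in or out.

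Values are intensities on the log2 scale, so a change of 1 is 2-fold. Median intensities of the 430A arrays were 403.88 to 419.26 in line 20b and 420.66 to 433.44 in FVB wild type, which do not overlap, and those of the 430B arrays were 31.64 to 34.35 in line 20b and 30.2 to 33.75 in FVB wild type. The markers of the labelled tissue were bright in both groups: the skeletal actin Acta1 read 16.29 to 16.57 in line 20b and 16.25 to 16.62 in FVB wild type, and none of the 7 tested genes out of 14 that mark other tissues was called. FVB wild-type mice 1 and 2 stood apart from the other 4 wild-type mice. On the second principal component of the 12 mice, which carries 13% of the variance, line 20b lay at 0.11 to 7.33, wild-type mice 1 and 2 at 18.41 and 23.91 and the other 4 wild-type mice at -22.04 to -5.56. The component thus put the wild-type mice on both sides of line 20b, and it does not show which of them are unusual. Counts are also given without wild-type mice 1 and 2. The gene lists below were written with earlier results of these data known, so a share called in a list describes it and is not a test. Of 12955 genes tested, 2566 were called at an adjusted p under 0.05, which is 19.8%. Of these, 1177 were higher in line 20b (9.09%) and 1389 were lower (10.7%). Without wild-type mice 1 and 2 the counts were 1030 higher (7.95%) and 1040 lower (8.03%), and all 1902 genes called both ways kept their direction. The higher and lower genes numbered 1484 and 1167 after quantile normalisation, and 1354 and 1163 after a shift of each array to 1 median, so which direction held the majority depended on scaling. The median change of all genes was -0.0131 as deposited, 0.0132 after quantile normalisation and -0.0002 after the shift. In 1389 genes, 10.7%, the 6 line 20b mice did not overlap the 6 wild-type mice, 676 of them above and 713 below. Changes of at least 2-fold numbered 171 up and 135 down, and changes of at least 8-fold 21 up and 5 down.

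**Figure D1:**
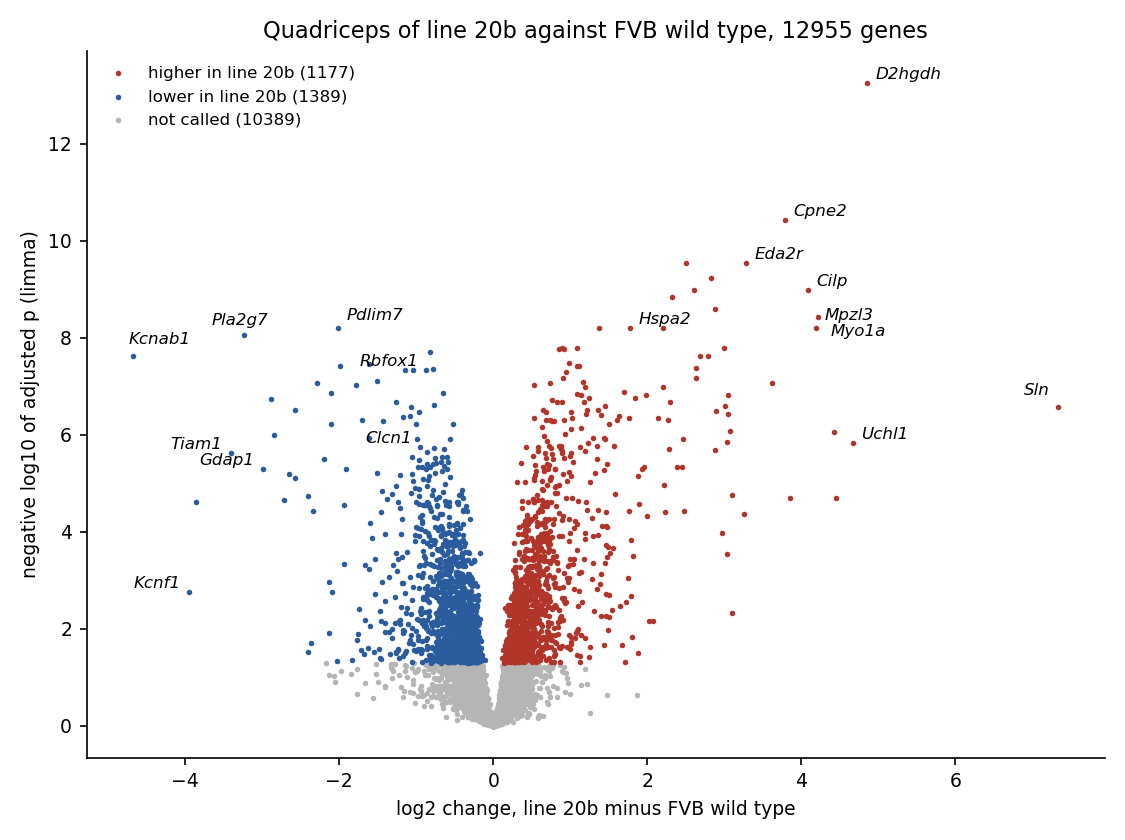
Change of each of the 12955 genes tested. The x axis gives the log2 change, line 20b minus FVB wild type, and the y axis the negative log10 of the adjusted p. Points in colour are the 2566 genes called at an adjusted p under 0.05 (1177 higher, 1389 lower), and the named points include Sln at 7.34 and Kcnab1 at -4.68.

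The largest rises were in genes of several functions. For each gene the lowest, median and highest value of the 6 mice of a group is given, and then the change, line 20b minus FVB wild type, with its standard error (SE). Sln, which encodes sarcolipin, a small brake on the calcium pump of the fibre, read 12.95, 13.34 and 13.94 in line 20b, against 2.18, 6.61 and 7.93 in FVB wild type (log2 change 7.34, SE 0.65, adjusted p = 2.7e-07). Every line 20b mouse lay above every wild-type mouse, and the line 20b mice spread over about 1 unit while the wild-type mice spread over more than 5. The change of Sln was 6.56 without wild-type mouse 2 and 6.23 without wild-type mice 1 and 2. Uchl1, a deubiquitinating enzyme abundant in neurons, read 11.21, 11.26 and 11.40 in line 20b, against 4.42, 6.71 and 7.86 in FVB wild type (log2 change 4.67, SE 0.48, adjusted p = 1.47e-06). Its 6 line 20b mice were nearly alike and all stood above wild type. Without wild-type mice 1 and 2 the change of Uchl1 was 4.04. Mpzl3, a membrane protein of the myelin protein zero family, read 9.34, 9.72 and 10.13 in line 20b, against 4.69, 5.53 and 6.58 in FVB wild type (4.19, SE 0.27). Cpne2, a copine that binds membranes when calcium rises, read 12.03, 12.36 and 12.96 in line 20b, against 8.33, 8.63 and 8.89 in FVB wild type (3.79, SE 0.16). Plekho1, a kinase-binding adaptor, read 11.45, 11.67 and 12.35 in line 20b, against 7.25, 8.26 and 9.22 in FVB wild type (3.61, SE 0.29). In each of these 3 genes the groups lay apart, and in Cpne2 the gap between them was larger than the spread of either group. Myo1a, an unconventional myosin of the brush border, was at least 4.36-fold higher, since all 6 wild-type mice were under the intensity of 32 that counts as measured. Neu2, a sialidase of the cytosol, rose by 4.45 (SE 0.57) (3.85 without wild-type mice 1 and 2), Fam171b by 3.25 (SE 0.45), and Scube2, a secreted protein, by 3.01 (SE 0.27). Wild-type mice 1 and 3 read 3.76 and 3.97 in Neu2, and wild-type mouse 6 read 4.20 in Fam171b. These values are under the measured level, so the sizes of the 2 changes rest in part on them. Cntnap2, a neurexin relative that clusters potassium channels on axons, rose by 3.05 (SE 0.26) at its brighter probe set and read -0.16 at the other. Nectin3, a cell adhesion molecule, rose by 3.05 (SE 0.28) and by 3.30 at its other probe set. Calml4, a calmodulin relative, rose by 3.04 (SE 0.31). D2hgdh, a mitochondrial dehydrogenase, rose by 4.86 (SE 0.14) at 1 probe set and read -0.11 at another, so the 2 probe sets differ.

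The promoter of Uchl1 is shown because its gene had the third largest rise and because the window holds a heat shock element, the site read by heat shock factors. The sequence is from RefSeq on build GRCm38.p6, chr5:66675871-66676170, plus strand, from 250 bases before the start of the transcript to 50 after it. The element searched was GAANNTTCNNGAA on both strands, and it stands in capitals here in its reverse form.
Uchl1: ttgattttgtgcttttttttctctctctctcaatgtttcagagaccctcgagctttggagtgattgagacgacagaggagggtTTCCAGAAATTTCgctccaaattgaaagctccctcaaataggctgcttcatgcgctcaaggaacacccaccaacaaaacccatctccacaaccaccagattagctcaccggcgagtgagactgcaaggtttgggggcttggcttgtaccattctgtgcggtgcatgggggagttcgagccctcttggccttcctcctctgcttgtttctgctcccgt
The element lay 167 to 155 bases before the start. Of 32851 such windows of all genes, 0.603% held it. It was looked for after the values were known and is a match of letters, not a measured site.

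**Figure D2:**
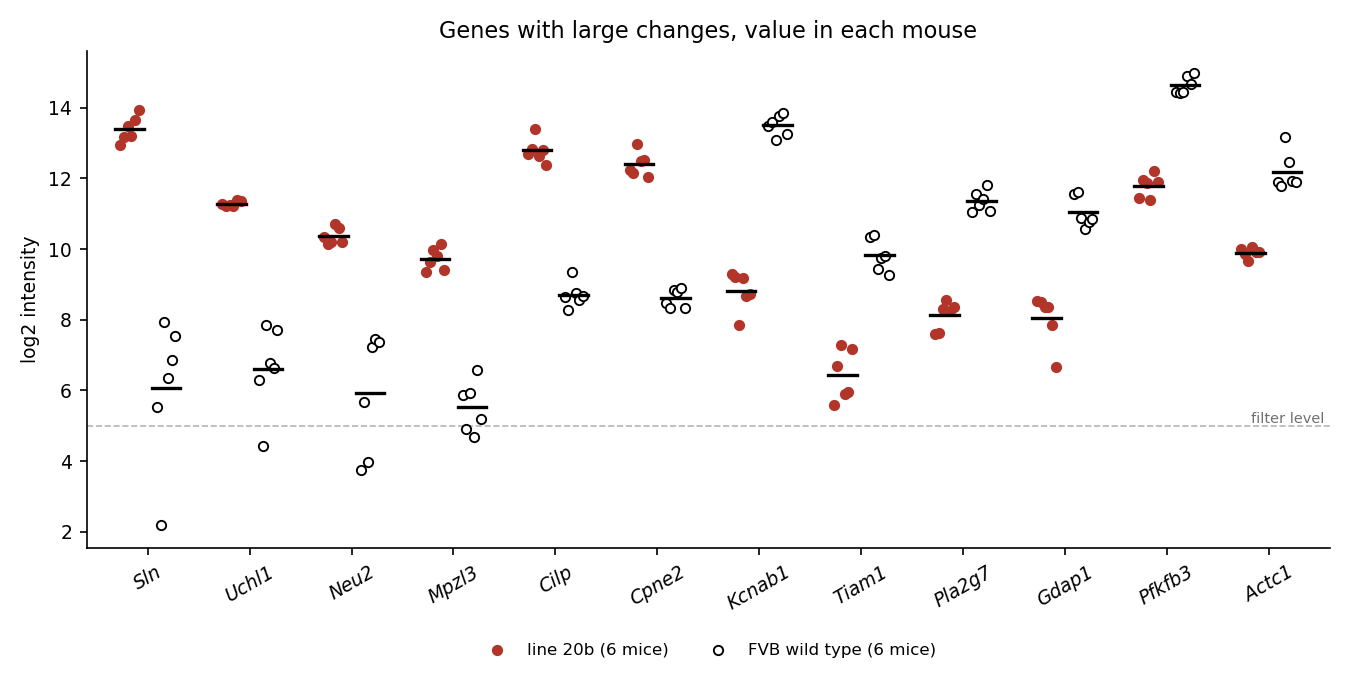
Values of 12 genes with large changes in each mouse. The y axis gives log2 intensity, filled circles are the 6 line 20b mice, open circles the 6 FVB wild-type mice, and bars the group means; Sln reads 12.95 to 13.94 in line 20b and 2.18 to 7.93 in wild type, and Kcnab1 7.86 to 9.30 in line 20b and 13.09 to 13.86 in wild type.

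The largest falls began with 2 potassium channel genes. Kcnab1, a beta subunit that speeds the closing of voltage-gated potassium channels, read 7.86, 8.96 and 9.30 in line 20b, against 13.09, 13.53 and 13.86 in FVB wild type (log2 change -4.68, SE 0.34, adjusted p = 2.43e-08). Its second probe set was at least 117-fold lower, a bound since all 6 line 20b mice were under the intensity of 32, and read 3.07, 3.40 and 4.73 in line 20b, against 11.41, 11.86 and 12.31 in FVB wild type. Neither probe set overlapped wild type. Kcnf1, a silent modulatory subunit, was under the measured level in all 6 line 20b mice and at least 9.4-fold lower, while wild-type mice ran from 5.42 to 11.85. Without wild-type mouse 5 the bound for Kcnf1 was at least 5.69-fold, and its other probe set, brighter in these mice, was not called (-1.39). Tiam1, which activates the small GTPase Rac, read 5.59, 6.32 and 7.28 in line 20b, against 9.27, 9.77 and 10.40 in FVB wild type (log2 change -3.41, SE 0.36, adjusted p = 2.39e-06). Pla2g7, the hydrolase of platelet-activating factor, read 7.60, 8.28 and 8.57 in line 20b, against 11.05, 11.33 and 11.82 in FVB wild type (-3.24, SE 0.21). Gdap1, an outer membrane protein of mitochondria mutated in a hereditary neuropathy, read 6.67, 8.36 and 8.52 in line 20b, against 10.58, 10.87 and 11.60 in FVB wild type (-2.99, SE 0.34). None of these 3 overlapped between the groups. Mib1, a ubiquitin ligase needed for Notch ligands, fell by 2.88 (SE 0.25), and both of its other probe sets were called lower, by 1.68 and 2.32. Dkk3, a secreted Wnt pathway relative, fell by 2.58 (SE 0.23) and was at least 10.03-fold lower at its other probe set, where all 6 line 20b mice were under 32. Casp12, a caspase tied to the endoplasmic reticulum, fell by 2.40 (SE 0.31), Cdh4, a cadherin, fell by 2.10 (SE 0.20), and Htra1, a secreted serine protease, fell by 2.10 (SE 0.18). Actc1, the cardiac actin that fetal muscle also makes, read 9.67, 9.91 and 10.06 in line 20b, against 11.78, 11.92 and 13.16 in FVB wild type (log2 change -2.29, SE 0.18, adjusted p = 8.38e-08). No line 20b mouse reached the lowest wild-type value. Cish, an inhibitor of cytokine signalling, fell by 2.37 (SE 0.69), with overlap between the groups and an adjusted p of 0.0781 without wild-type mice 1 and 2.

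Genes that set the electrical state of the fibre membrane moved in both directions. Clcn1, the chloride channel that steadies the resting fibre, read 11.17, 11.32 and 11.53 in line 20b, against 12.02, 12.29 and 12.62 in FVB wild type (log2 change -0.95, SE 0.10, adjusted p = 1.8e-06), which is 1.93-fold lower with no overlap. Of 19 chloride channel genes and partners tested, 2 rose and 2 fell (2 and 1 without wild-type mice 1 and 2), 21.1%, near the 19.8% of all genes. Clcn3, an endosomal exchanger, rose by 0.28 (SE 0.09), a call lost without any 1 of line 20b mice 1, 2, 5 and 6 or wild-type mice 1, 3, 4 and 5 (adjusted p up to 0.0697). Of 37 potassium channel genes, 4 rose and 8 fell (4 and 7 without those 2 mice), 32.4% of them, against 19.8% of all genes. In 3 of the 37 line 20b lay above every wild-type mouse and in 7 below, against 5.22% and 5.5% of all genes. Kcnc4, a voltage-gated potassium channel, read 12.34, 12.52 and 12.69 in line 20b, against 11.04, 11.28 and 11.54 in FVB wild type (log2 change 1.24, SE 0.11, adjusted p = 1.73e-07). Kcnq5, of the M-current family, rose by 0.82 (SE 0.14). Kcnk2, a stretch-sensitive leak channel, read 4.92, 6.03 and 6.68 in line 20b, against 7.34, 7.57 and 9.52 in FVB wild type (-2.13, SE 0.41; -1.50 without wild-type mice 1 and 2), and Kcng4, a silent subunit, fell by 0.90 (SE 0.15). Of 14 sodium channel, pump and exchanger genes, 4 rose and 3 fell (3 and 2 without those 2 mice), 50%, against 19.8% of all genes. Atp1b4, which resembles the beta subunits of the sodium pump and is abundant in muscle, read 12.13, 12.39 and 13.61 in line 20b, against 7.22, 8.38 and 10.50 in FVB wild type (log2 change 3.85, SE 0.50, adjusted p = 2.02e-05). Fxyd1, phospholemman, a regulator of the sodium pump, read 13.01, 13.11 and 13.20 in line 20b, against 12.47, 12.59 and 12.67 in FVB wild type (0.53, SE 0.05). Both were above all wild-type mice. Atp1b2, a beta subunit, rose by 0.54 (SE 0.12), though the probe set that is brightest in these mice was not called (0.24), while Scn4b, a sodium channel beta subunit, fell by 0.36 (SE 0.09) and Slc9a2, a sodium-proton exchanger, by 0.65 (SE 0.16).

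The promoter of Clcn1 is shown because Clcn1 is the channel whose loss gives myotonia and because its window holds a MEF2 element, the site of the muscle transcription factors of that name. It is RefSeq sequence on build GRCm38.p6, chr6:42286435-42286734, plus strand, over the same window, with the element in capitals.
Clcn1: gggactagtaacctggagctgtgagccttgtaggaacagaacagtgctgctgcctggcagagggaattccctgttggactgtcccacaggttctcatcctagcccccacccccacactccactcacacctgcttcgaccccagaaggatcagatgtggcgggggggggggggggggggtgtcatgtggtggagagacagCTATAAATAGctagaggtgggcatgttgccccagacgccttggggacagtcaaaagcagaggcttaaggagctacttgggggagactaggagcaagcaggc
The element was searched on both strands by its name's usual letters and lay 51 to 42 bases before the start, and 0.557% of all windows held one. Of the 207 tested genes named here, 161 had a window in the table.

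**Figure D3:**
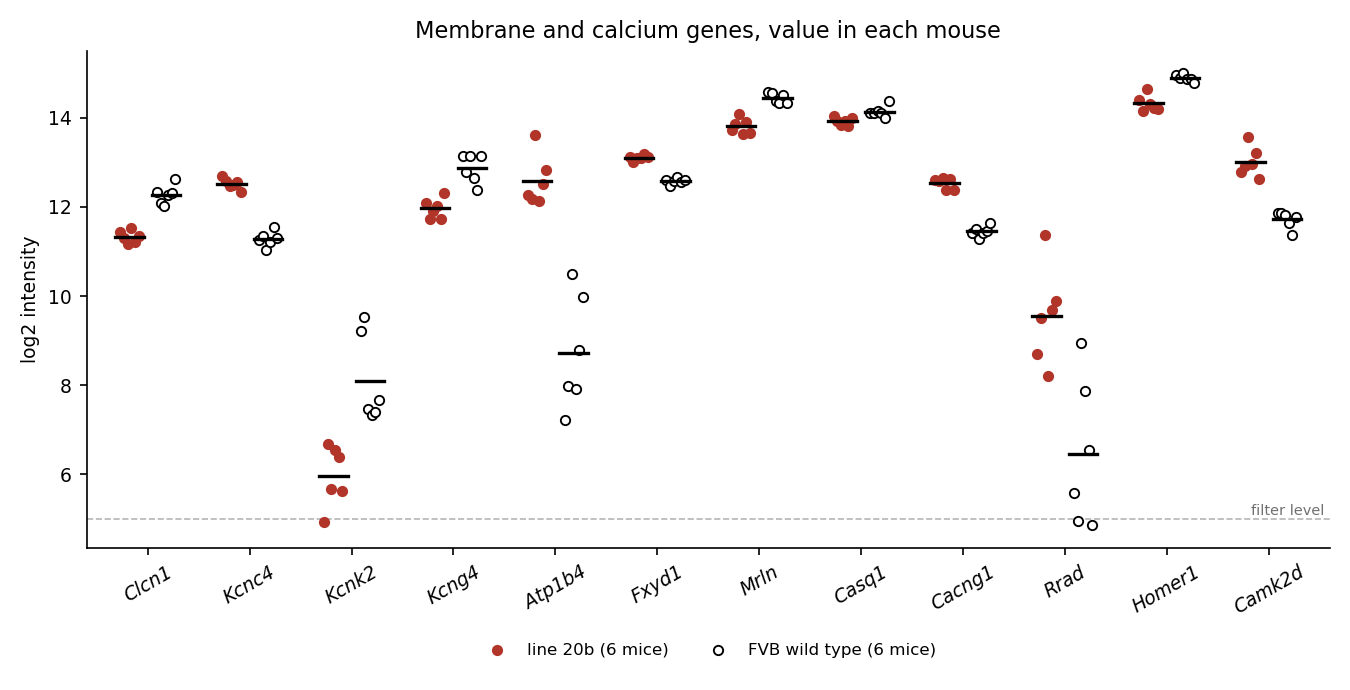
Membrane and calcium genes in each mouse. The y axis gives log2 intensity, filled circles are the 6 line 20b mice, open circles the 6 FVB wild-type mice and bars the group means; Clcn1 reads 11.17 to 11.53 in line 20b and 12.02 to 12.62 in wild type, and the calcium channel subunit Cacng1 12.38 to 12.64 in line 20b and 11.28 to 11.62 in wild type.

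Genes of the calcium store were called at 21.4%, near the 19.8% of all genes, and those of the triad at 38.5%. Of 28 genes of the store, 3 rose and 3 fell (3 and 4 without wild-type mice 1 and 2), and the pump itself, Atp2a1, was not called (log2 change -0.09, SE 0.09, adjusted p = 0.553). Mrln, myoregulin, another small brake on that pump, moved opposite to Sln and read 13.63, 13.79 and 14.08 in line 20b, against 14.33, 14.45 and 14.58 in FVB wild type (log2 change -0.64, SE 0.07, adjusted p = 4.43e-06). The groups did not overlap. Casq1, the calcium-binding protein of fast fibres, fell by 0.22 (SE 0.06), while Tmem38b, a channel of the store membrane, rose by 0.40 (SE 0.08) and Calu, a calcium-binding protein of the secretory path, by 0.49 (SE 0.08). Stim2, a calcium sensor, fell by 0.41 (SE 0.12), a call lost without any 1 of line 20b mice 1, 2 and 6 or wild-type mice 1 and 5 (adjusted p up to 0.0615). Of 26 genes of the triad, where the surface membrane meets the store, 8 rose and 2 fell (6 and 3 without those 2 mice). Cacng1, a subunit of the voltage sensor, read 12.38, 12.59 and 12.64 in line 20b, against 11.28, 11.45 and 11.62 in FVB wild type (log2 change 1.09, SE 0.08, adjusted p = 3.8e-08). Rrad, a small GTPase that restrains calcium channels, read 8.21, 9.59 and 11.36 in line 20b, against 4.85, 6.07 and 8.95 in FVB wild type (log2 change 3.10, SE 0.72, adjusted p = 0.00463), with overlap and a change of 2.51 without wild-type mice 1 and 2. Bin1, which shapes the tubules, rose by 0.41 (SE 0.06), Cav3, muscle caveolin, by 0.73 (SE 0.12), and Ahnak, a scaffold at the membrane, by 0.44 (SE 0.06). Homer1, a scaffold of calcium channels, read 14.16, 14.27 and 14.66 in line 20b, against 14.78, 14.88 and 15.000 in FVB wild type (-0.57, SE 0.10), and its 5 other probe sets were called lower too. The voltage sensor Cacna1s (0.04, SE 0.09) and the release channel Ryr1 (-0.09, SE 0.06) were not called.

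Calmodulin-dependent enzymes and the factors they act on also split. They were called at 43.3%, against 19.8% of all genes. Of 30 genes, 6 rose and 7 fell (6 and 4 without wild-type mice 1 and 2). Camk2d, the delta chain of calmodulin kinase, read 12.63, 12.94 and 13.57 in line 20b, against 11.38, 11.80 and 11.86 in FVB wild type (log2 change 1.29, SE 0.13, adjusted p = 1.14e-06). Camk2b, the beta chain, rose by 0.56 (SE 0.10), while Camk2a, the alpha chain, fell by 0.71 (SE 0.24), so the chains of 1 kinase did not move together. The call of Camk2a was lost on leaving out any 1 mouse other than wild-type mice 4 and 5 (adjusted p up to 0.0914), without wild-type mice 1 and 2 (0.104) and after quantile normalisation (0.0555). Among its other probe sets, those at -0.68 and -0.75 were called lower, and those at -0.70, -0.21 and 0.08 were not called. Nfatc2, a transcription factor freed by calcineurin, read 11.42, 11.48 and 11.69 in line 20b, against 10.30, 10.47 and 10.68 in FVB wild type (1.03, SE 0.12), and its 3 other probe sets rose by 0.49 to 2.88. Hdac9, a deacetylase that binds MEF2 factors, rose by 1.46 (SE 0.35). Ppp3cc, a calcineurin catalytic chain, fell by 0.65 (SE 0.13).

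The splicing regulators were called at 13.5%, against the 19.8% of all genes. Of 37 regulators, 2 rose and 3 fell (1 and 3 without wild-type mice 1 and 2). The counts were 2 and 7 with the mean of each gene's probe sets, and 3 and 6 with the mouse number as a block. The low share thus depended on the setting. Mbnl1 was not called (log2 change -0.02, SE 0.04, adjusted p = 0.831), nor was Mbnl2 (-0.25, SE 0.10). Mbnl2 was called lower after quantile normalisation (-0.32, adjusted p = 0.0102), with array weights (-0.28, adjusted p = 0.0485) and with the mouse number as a block (-0.25, adjusted p = 0.0278). It was also called lower without line 20b mouse 3 (-0.33, adjusted p = 0.012) and without wild-type mouse 6 (-0.30, adjusted p = 0.0471). Rbfox1, a neuronal and muscle regulator, read 14.36, 14.48 and 14.55 in line 20b, against 15.22, 15.32 and 15.55 in FVB wild type (log2 change -0.87, SE 0.07, adjusted p = 4.71e-08), and Celf2 read 12.19, 12.48 and 12.61 in line 20b, against 13.28, 13.42 and 13.54 in FVB wild type (log2 change -0.97, SE 0.11, adjusted p = 3.34e-06). Both lay below every wild-type mouse. Rbfox2 rose by 0.56 (SE 0.14), while its other probe sets were not called. Celf1 was not called at its brightest probe set (0.16, SE 0.07; adjusted p = 0.0483 without wild-type mouse 3). Another Celf1 probe set was called lower (-0.67, SE 0.12, adjusted p = 0.000873), and the rest were not called, so its probe sets differ. Of 29 muscle transcripts whose splicing depends on MBNL1, 10 rose and 6 fell (8 and 5 without those 2 mice), 55.2% of them, against 19.8% of all genes. Tbc1d1, a regulator of glucose transporter traffic, read 11.60, 11.71 and 11.98 in line 20b, against 9.72, 10.59 and 11.13 in FVB wild type (log2 change 1.18, SE 0.20, adjusted p = 0.000371). Pdlim3, an adaptor of the Z disc, read 14.61, 14.79 and 15.12 in line 20b, against 13.86, 14.16 and 14.29 in FVB wild type (0.69, SE 0.09). Phka1, a chain of phosphorylase kinase, read 13.09, 13.23 and 13.39 in line 20b, against 13.66, 13.83 and 14.09 in FVB wild type (-0.60, SE 0.07). All 3 were without overlap, Phka1 on the lower side. Ldb3, a Z-disc protein also called Cypher, fell by 0.42 (SE 0.08) at its brightest probe set, while its 2 other probe sets were called higher, by 0.23 and 0.47. For such a gene the arrays give probe-set changes and not 1 transcript level. Nfix, a transcription factor, rose by 0.33 (SE 0.08).

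**Figure D4:**
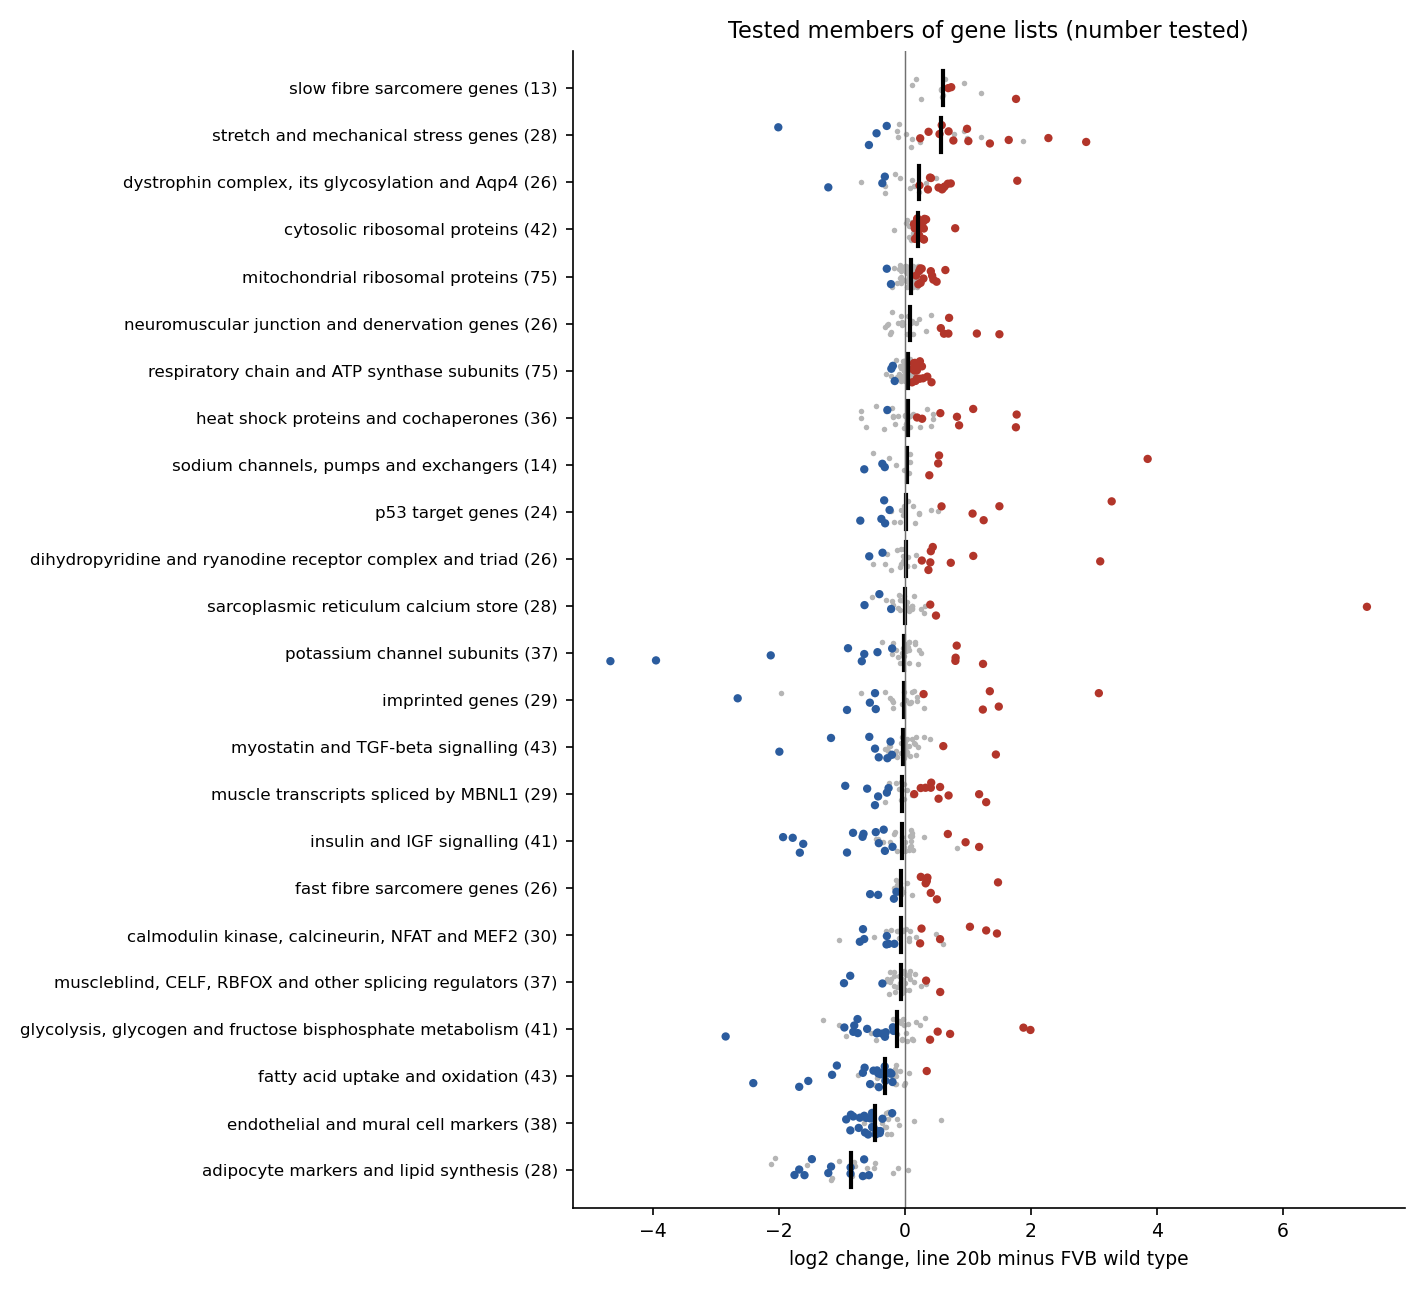
Log2 changes, line 20b minus FVB wild type, of the tested members of 24 gene lists (x axis; 1 row per list). Filled circles are members called at an adjusted p under 0.05, small grey dots members that were not called, and black ticks the list medians, which run from -0.85 for the adipocyte markers to 0.604 for the slow sarcomere genes.

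The fast-fibre list of sarcomere genes was called at 42.3% and the slow-fibre list at 23.1%, against 19.8% of all genes. Whether each member is specific to the fibre type of its list was not tested. Of 26 genes on the fast-fibre list, 7 rose and 4 fell (6 and 4 without wild-type mice 1 and 2), and 2 fell after quantile normalisation. Lmod2, which lengthens thin filaments, read 14.55, 14.97 and 15.12 in line 20b, against 12.76, 13.47 and 14.09 in FVB wild type (log2 change 1.48, SE 0.17, adjusted p = 4.08e-06), and Lmod3, its relative, rose by 0.51 (SE 0.10). Tpm2, a tropomyosin, rose by 0.41 (SE 0.05), as did its 3 other probe sets. Of the fast myosins, Myh4, of the fastest fibres, fell by 0.17 (SE 0.03) and read 16.62 to 16.70 in line 20b and 16.78 to 16.89 in FVB wild type, and after quantile normalisation it was not called (-0.03, adjusted p = 0.547). Myh1, of the next fastest, rose by 0.33 (SE 0.05) and read 15.97 to 16.26 in line 20b and 15.66 to 15.89 in FVB wild type. Mylk2, the kinase of the fast light chain, fell by 0.55 (SE 0.10). Of 13 genes on the slow-fibre list, 3 rose and 0 fell with or without those 2 mice, and the slow myosin Myh7 was not among the 3. Smtnl1 read 13.75, 13.84 and 13.92 in line 20b, against 11.55, 12.05 and 12.75 in FVB wild type (log2 change 1.76, SE 0.16, adjusted p = 4.48e-07), Mybpc1, a myosin-binding protein, rose by 0.69 (SE 0.07), and Actn2, an actin crosslinker of the Z disc, by 0.74 (SE 0.12). The slow myosin Myh7 was not called (log2 change 0.64, SE 0.81, adjusted p = 0.645), and its wild-type mice ran from 7.72 to 14.10. The mean of the slow list, relative to its mean over the 12 mice, was -0.15 to 0.93 in line 20b, -1.19 and -2.66 in wild-type mice 1 and 2, and 0.12 to 0.94 in the other 4. Its median change was 0.604, and -0.522 without those 2 mice.

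Embryonic and junctional genes rose in a minority of members. The lists were called at 27.6% and 23.1%, against 19.8% of all genes. Of 29 embryonic and myogenic genes, 7 rose and 1 fell, but 2 and 1 without wild-type mice 1 and 2. Myh3, embryonic myosin, read 8.17, 8.30 and 8.56 in line 20b, against 6.54, 7.03 and 8.38 in FVB wild type (log2 change 1.06, SE 0.29, adjusted p = 0.0156), with an adjusted p of 0.0694 without those mice. Nes, nestin, rose by 0.60 (SE 0.11), while its other probe set was not called (0.05). Myod1 (0.47, SE 0.29) and Myog (-0.12, SE 0.47), master factors of muscle formation, were not called. Of 26 junction and denervation genes, 6 rose and 0 fell (6 and 1 without those 2 mice). Chrna1, the alpha chain of the acetylcholine receptor, read 10.97, 11.12 and 11.27 in line 20b, against 10.30, 10.41 and 10.58 in FVB wild type (log2 change 0.70, SE 0.13, adjusted p = 0.000843), and Chrnb1, the beta chain, rose by 0.57 (SE 0.13). Lrp4, the agrin receptor, rose by 0.62 (SE 0.17). Ncam1, an adhesion molecule of denervated fibres, rose by 1.14 (SE 0.21), with 2 other probe sets not called. Musk (0.14, SE 0.15) and the fetal receptor chain Chrng (-0.22, SE 0.18) were not called.

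Genes that muscle turns on under stretch and load were called in 16 of 28 cases. Of these 28 genes, 12 rose and 4 fell (12 and 3 without wild-type mice 1 and 2), 57.1%, against 19.8% of all genes. This list too was written with earlier results of these data known, so the share is not a test. Mustn1, a small nuclear protein of growing muscle, read 12.52, 12.77 and 13.29 in line 20b, against 9.13, 9.65 and 11.42 in FVB wild type (log2 change 2.88, SE 0.30, adjusted p = 2.03e-06). Mybph, a myosin-binding protein, read 12.88, 13.08 and 13.92 in line 20b, against 10.29, 10.76 and 11.79 in FVB wild type (log2 change 2.28, SE 0.24, adjusted p = 2e-06). Both stood above all wild-type mice. Lmcd1, a LIM protein, rose by 1.65 (SE 0.37), Flnc, the muscle filamin, by 1.35 (SE 0.27), and Ccn2, connective tissue growth factor, by 1.01 (SE 0.28) (0.78, adjusted p = 0.076, without wild-type mice 1 and 2). Fhl1 rose by 0.77 (SE 0.13) and by 2.00 at its other probe set. Pdlim7, an adaptor that carries kinases to the cytoskeleton, ran against them and read 10.49, 10.77 and 11.12 in line 20b, against 12.61, 12.84 and 12.95 in FVB wild type (log2 change -2.01, SE 0.13, adjusted p = 6.27e-09). Ankrd1, a classic stretch gene, was not called (log2 change 1.87, SE 1.03, adjusted p = 0.236) and ran from 10.56 to 14.89 in line 20b and 7.45 to 14.25 in wild type. Without wild-type mouse 3 it was called (2.80, adjusted p = 0.0242), as it was with the mouse number as a block (1.87, adjusted p = 0.0094). The mean of the list was 0.12 to 0.83 in line 20b and -0.67 to 0.43 in wild type, and the highest mouse of each group was mouse 3. Without line 20b mouse 3, 12 rose and 4 fell.

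The complex that ties the cytoskeleton to the matrix rose in part. Of its list 53.8% was called, against 19.8% of all genes. Of 26 genes of the dystrophin complex and its glycosylation, 11 rose and 3 fell (9 and 1 without wild-type mice 1 and 2), with 9 above every wild-type mouse and 2 below, against 5.22% and 5.5% of all genes. Sntb1, beta-1 syntrophin, read 9.15, 10.05 and 11.04 in line 20b, against 7.84, 8.16 and 8.98 in FVB wild type (log2 change 1.78, SE 0.28, adjusted p = 0.000152), and its other probe sets spread from 0.12 to 3.33. Sspn, sarcospan, read 13.55, 13.62 and 13.81 in line 20b, against 12.88, 12.97 and 13.23 in FVB wild type (0.63, SE 0.08). Sync, syncoilin, an intermediate filament protein, rose by 0.68 (SE 0.11). Dystrophin, Dmd, was not called (0.12, SE 0.08), nor was its relative utrophin, Utrn (-0.32, SE 0.15). Aqp4, the water channel held by the complex, rose by 0.61 (SE 0.19) with overlap, a call lost without any 1 of line 20b mice 3 to 6 or wild-type mice 2 to 4 (adjusted p up to 0.0671). Aqp7, a glycerol channel, fell by 1.22 (SE 0.30), with an adjusted p of 0.0522 without wild-type mice 1 and 2. Aqp7 is also among the adipocyte markers.

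Heat shock and proteasome genes were each called at 25%, against the 19.8% of all genes. Of 36 heat shock proteins and helpers, 8 rose and 1 fell (5 and 1 without wild-type mice 1 and 2). Hspa2, a heat shock protein best known from testis, read 10.77, 10.94 and 11.22 in line 20b, against 8.87, 9.24 and 9.40 in FVB wild type (log2 change 1.77, SE 0.11, adjusted p = 6.27e-09). Hspb7, a small heat shock protein of heart and muscle, read 13.95, 14.11 and 14.60 in line 20b, against 11.55, 12.28 and 13.59 in FVB wild type (log2 change 1.76, SE 0.24, adjusted p = 3.7e-05), and Hspb3 rose by 0.83 (SE 0.07). The stress-induced Hspa1b was not called (-0.61, SE 0.80), and its wild-type mice ran from 10.51 to 15.92. The mean of the list was highest in line 20b mouse 3, at 0.41, against -0.08 to 0.12 in the other 5 line 20b mice and -0.49 to 0.14 in wild type. Of 40 proteasome subunits, 6 rose and 4 fell (2 and 3 without wild-type mice 1 and 2). The count of rises was 3 without any 1 of line 20b mice 1, 4 and 5 or wild-type mouse 2, and 11 after quantile normalisation, and the count of falls was 2 without line 20b mouse 1 or wild-type mouse 6. Psmd4, a ubiquitin receptor, rose by 0.55 (SE 0.06), while the interferon-inducible Psme1 and Psmb8 fell by 0.43 (SE 0.10) and 0.69 (SE 0.21). The call of Psmb8 was lost without line 20b mouse 1 (adjusted p = 0.0619), without wild-type mouse 6 (0.0653) and without wild-type mice 1 and 2 (-0.42, adjusted p = 0.106). Of 36 atrophy genes, 3 rose and 4 fell, 19.4%, close to the 19.8% of all genes. The ligases that mark wasting muscle, Fbxo32 (-0.04, SE 0.21) and Trim63 (0.14, SE 0.12), were not called. Foxo3, which drives them, rose by 0.51 (SE 0.10), and Znrf2 and Fbxo31, other ligase genes, fell by 1.05 (SE 0.12) and 0.82 (SE 0.09).

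Targets of p53 and imprinted genes rose and fell in equal numbers. The lists were called at 41.7% and 34.5%, against 19.8% of all genes. Of 24 p53 targets, 5 rose and 5 fell (5 and 4 without wild-type mice 1 and 2). Eda2r, a receptor of the tumour necrosis factor family, read 13.56, 13.64 and 14.35 in line 20b, against 10.17, 10.52 and 10.76 in FVB wild type (log2 change 3.28, SE 0.16, adjusted p = 2.94e-10). The gap between the groups was wider than either group's spread. Phlda3, an inhibitor of Akt, read 11.39, 11.73 and 12.002 in line 20b, against 9.94, 10.51 and 11.04 in FVB wild type (1.25, SE 0.15), and Cdkn1a, the cell cycle inhibitor p21, read 10.49, 10.83 and 12.86 in line 20b, against 9.32, 9.64 and 10.09 in FVB wild type (1.50, SE 0.31). Mdm2, the p53 ligase and itself a target, fell by 0.33 (SE 0.10), a call lost without any 1 of line 20b mice 4, 5 and 6 or wild-type mice 1, 3, 4 and 5 (adjusted p up to 0.0686). Of 29 imprinted genes, 5 rose and 5 fell (4 and 3 without those 2 mice; 3 fell without any 1 of wild-type mice 1, 3 and 4). Meg3, a noncoding RNA, read 11.62, 12.66 and 13.31 in line 20b, against 9.30, 9.62 and 9.75 in FVB wild type (log2 change 3.08, SE 0.30, adjusted p = 8.39e-07), and 7 of its 8 other probe sets were called. Rian and Mirg, noncoding RNAs of the same imprinted domain, rose by 1.49 (SE 0.24) and 1.24 (SE 0.41). Mirg had 1 high mouse at 10.27 and a line 20b median of 7.29, against 6.38 to 6.52 in wild type. Its change was 0.72 without that mouse, line 20b mouse 3, and its call was lost without any 1 of line 20b mice 4 and 5 or the wild-type mice (adjusted p up to 0.0683). Peg3, a zinc finger gene expressed from the paternal allele, ranged over 11.43 to 12.09 in line 20b and 10.17 to 10.80 in FVB wild type (1.35, SE 0.15). Grb10, an adaptor that restrains insulin signalling, read 10.55, 10.68 and 10.86 in line 20b, against 11.42, 11.54 and 11.90 in FVB wild type (-0.92, SE 0.10). Igf2 was not called (0.12, SE 0.10).

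The genes of the 2 routes of polyamine breakdown moved in opposite directions. Of 17 polyamine genes, 3 rose and 4 fell (2 and 4 without wild-type mice 1 and 2), 41.2%, against 19.8% of all genes. Smox, the oxidase of spermine, read 9.60, 10.04 and 10.38 in line 20b, against 11.75, 12.17 and 12.61 in FVB wild type (log2 change -2.20, SE 0.24, adjusted p = 3.09e-06), and its other probe set fell by 2.16. Sat1, the acetyltransferase that starts the other route of breakdown, read 11.99, 12.26 and 12.33 in line 20b, against 10.67, 11.18 and 11.50 in FVB wild type (1.11, SE 0.14), and its relative Sat2 rose by 0.51 (SE 0.10). Odc1, the first enzyme of synthesis, fell by 0.46 (SE 0.12), as did its 2 other probe sets, and Mtap, which recycles the methylthio by-product, fell by 1.30 (SE 0.23). Of 31 amino acid transporter genes, 4 rose and 7 fell (3 and 6 without those 2 mice), 35.5%, against 19.8% of all genes. Slc38a4, of the neutral amino acid family, read 8.29, 9.66 and 10.83 in line 20b, against 11.67, 12.35 and 12.51 in FVB wild type (log2 change -2.65, SE 0.31, adjusted p = 6.46e-06). Slc1a1, a glutamate carrier, rose by 1.72 (SE 0.37). It read 6.54 to 6.58 in line 20b mice 1 to 3 and 7.95 to 8.50 in mice 4 to 6. Its other probe sets read 0.44, which was called, and -0.07, which was not. Slc43a3 fell by 0.91 (SE 0.20), and whether this member of the list carries amino acids was not tested. Of 32 genes of the ATF4 and stress response, 2 rose and 7 fell, 28.1%, against 19.8% of all genes. The counts were 2 and 3 without those 2 mice, and 11 fell without wild-type mouse 3. Atf4 itself was not called (-0.06, SE 0.09). Xbp1, a factor of the unfolded protein response, rose by 0.66 (SE 0.10) and Ddit3 by 0.53 (SE 0.12), while Slc3a2, the heavy chain of amino acid exchangers, fell by 0.53 (SE 0.09) and Gars, the glycine tRNA ligase, by 0.38 (SE 0.07).

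Growth factor genes were mostly lower where they changed. Of the insulin and IGF list 39% was called, against 19.8% of all genes. The myostatin and TGF-beta list was called at 23.3%. Of 41 genes of insulin and IGF signalling, 3 rose and 13 fell (3 and 12 without wild-type mice 1 and 2). Igf1, insulin-like growth factor 1, read 9.38, 9.94 and 10.58 in line 20b, against 10.42, 12.19 and 12.71 in FVB wild type (log2 change -1.93, SE 0.34, adjusted p = 0.00047), and its 3 other probe sets fell by 1.12 to 1.71. Igfbp5, a binding protein of muscle, read 11.80, 12.33 and 12.63 in line 20b, against 13.64, 14.05 and 14.39 in FVB wild type (log2 change -1.78, SE 0.14, adjusted p = 9.55e-08). The insulin receptor Insr (-0.01, SE 0.07) and the muscle glucose transporter Slc2a4 (-0.04, SE 0.07) were not called, whereas Slc2a3, a glucose transporter of neurons, fell by 1.67 (SE 0.29). Enho, a peptide hormone gene, fell by 1.61 (SE 0.16). Of 43 genes of myostatin and TGF-beta signalling, 2 rose and 8 fell (2 and 6 without those 2 mice; 5 fell after the shift to 1 median). Acvr2a, a receptor of activins and myostatin, read 10.90, 11.19 and 11.48 in line 20b, against 12.99, 13.01 and 13.59 in FVB wild type (log2 change -1.99, SE 0.15, adjusted p = 3.73e-08). Smad3, a transcription factor behind these receptors, read 11.56, 11.70 and 11.90 in line 20b, against 12.63, 12.93 and 13.09 in FVB wild type (log2 change -1.17, SE 0.11, adjusted p = 4.32e-07), and its other probe sets fell by 1.20 and 2.60. Tgfb3, a ligand, ran the other way and read 11.86, 12.03 and 12.43 in line 20b, against 10.17, 10.82 and 10.88 in FVB wild type (log2 change 1.45, SE 0.13, adjusted p = 2.58e-07). None of these 3 overlapped between the groups.

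Among the fuel genes called, falls outnumbered rises. Called were 46.3% of the glycolysis and glycogen list, 48.8% of the fatty acid list and 31.4% of the PGC-1 and PPAR list. Over all genes the share was 19.8%. Of 41 genes of glycolysis and glycogen, 5 rose and 14 fell (4 and 14 without wild-type mice 1 and 2), and 3 rose without any 1 of line 20b mice 1 and 4 or wild-type mice 4 and 6. Pfkfb3, which makes the activator of phosphofructokinase, read 11.40, 11.89 and 12.20 in line 20b, against 14.41, 14.57 and 14.97 in FVB wild type (log2 change -2.85, SE 0.28, adjusted p = 1e-06), and Fbp2, which runs the opposing step, read 12.64, 12.79 and 13.49 in line 20b, against 10.52, 10.87 and 11.28 in FVB wild type (log2 change 1.99, SE 0.28, adjusted p = 4.84e-05). The 2 genes moved in opposite directions and neither overlapped. Gpd2, the mitochondrial glycerol phosphate dehydrogenase, read 13.39, 13.45 and 13.54 in line 20b, against 14.14, 14.26 and 14.47 in FVB wild type (-0.82, SE 0.06), and the phosphofructokinase Pfkm fell by 0.18 (SE 0.05), though not after quantile normalisation (-0.12, adjusted p = 0.21) or the shift to 1 median (-0.13, adjusted p = 0.0722). Of 43 fatty acid genes, 1 rose and 20 fell, but 1 and 8 without those 2 mice. The falls numbered 13 without line 20b mouse 3, 12 without wild-type mouse 2 and 13 after the shift to 1 median. Cd36, the fatty acid transporter, read 14.12, 14.42 and 14.61 in line 20b, against 14.63, 15.02 and 15.65 in FVB wild type (log2 change -0.67, SE 0.16, adjusted p = 0.00538). Mgll, which frees the last fatty acid of stored fat, fell by 1.08 (SE 0.20), Acsl3, which activates fatty acids, by 1.53 (SE 0.32), and Lpl, lipoprotein lipase, by 0.50 (SE 0.10). Lipe, hormone-sensitive lipase, fell by 1.68 (SE 0.54), and by 0.69 with an adjusted p of 0.121 without those 2 mice. Its call was also lost without any 1 mouse other than line 20b mouse 3 and wild-type mice 3 to 6 (adjusted p up to 0.0845). Of 35 genes of the PGC-1 and PPAR network, 1 rose and 10 fell (1 and 9 without them). Prkab2, a chain of the energy sensor AMPK, read 13.74, 13.96 and 14.15 in line 20b, against 14.85, 15.09 and 15.24 in FVB wild type (log2 change -1.14, SE 0.09, adjusted p = 4.71e-08), Rxrg, a nuclear receptor, fell by 0.84 (SE 0.10) and Ppara by 0.60 (SE 0.12), while Ppargc1a was not called (-0.21, SE 0.17).

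Ribosomal proteins rose in most of the genes tested, and respiratory chain genes in a minority, all by small amounts. Of 75 respiratory chain and ATP synthase genes, 15 rose and 3 fell (13 and 2 without wild-type mice 1 and 2), with a median of 0.047. That is 24% called, against 19.8% of all genes. Ndufa2, of complex I, read 13.96, 14.01 and 14.04 in line 20b, against 13.53, 13.57 and 13.68 in FVB wild type (log2 change 0.42, SE 0.04, adjusted p = 1.79e-06), and Ndufb3 rose by 0.29 (SE 0.05) and Atp5l by 0.27 (SE 0.06). Of 75 mitochondrial ribosomal genes, 12 rose and 2 fell (11 and 1 without those 2 mice), and 24 rose after the shift to 1 median. With all mice and values as deposited the share called was 18.7%, close to the 19.8% of all genes. The largest rise was that of Mrps35 (0.64, SE 0.08). Of 41 TCA cycle genes, 4 rose and 7 fell (3 and 5 without wild-type mice 1 and 2), 26.8%, against 19.8% of all genes. Got2, an aminotransferase, rose by 0.53 (SE 0.06), and Gpt2 and Me1 fell by 0.91 (SE 0.14) and 0.86 (SE 0.10). Of 25 fusion and fission genes, 4 rose and 2 fell (2 and 3 without those 2 mice), 24%, against 19.8% of all genes. Beside Gdap1 the changes were small, such as that of Mief2 (0.51, SE 0.09). Of 42 cytosolic ribosomal proteins, 26 rose and 0 fell, with and without wild-type mice 1 and 2, and this is 61.9%, against 9.09% of all genes called higher. Their median change was 0.204, about 1.15-fold, and 0.177 to 0.252 over all alternatives. The list mean was 0.07 to 0.14 in line 20b and -0.22 to -0.02 in wild type, so the mice did not overlap. Rps25, of the small subunit, read 8.58, 8.89 and 9.19 in line 20b, against 7.70, 8.12 and 8.26 in FVB wild type (log2 change 0.80, SE 0.15, adjusted p = 0.00114), Rpl7, of the large one, read 13.84, 13.97 and 14.001 in line 20b, against 13.48, 13.65 and 13.76 in FVB wild type (0.30, SE 0.05), and Rpsa, also the laminin receptor, rose by 0.34 (SE 0.07). Ribosomal proteins have many processed copies in the genome, so a probe set may read more than 1 of them.

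**Figure D5:**
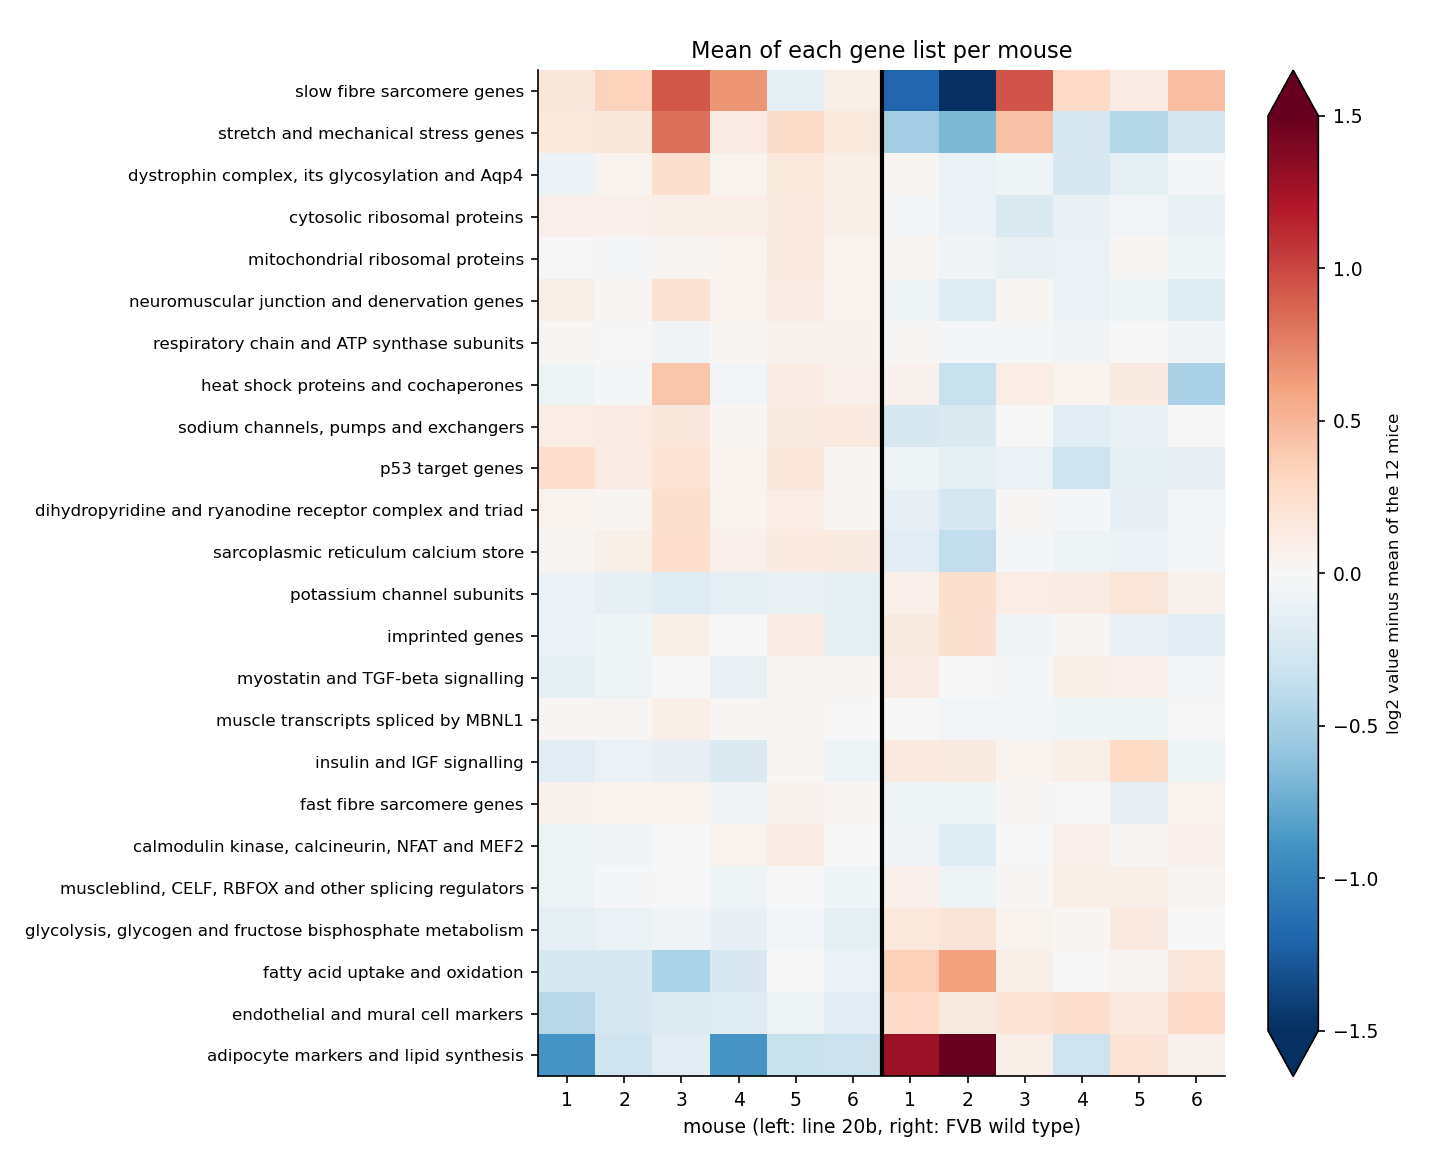
Mean of each of 24 gene lists in each mouse, relative to the mean of the 12 mice (colour, log2 units; columns are the 6 line 20b mice and then the 6 FVB wild-type mice). Wild-type mice 1 and 2 stand out in the slow sarcomere row (-1.19 and -2.66) and the adipocyte row (1.29 and 1.56), and line 20b mouse 3 in the mechanical row (0.83).

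Most of the blood vessel markers tested fell in line 20b, a minority of the fat markers did, and those of leukocytes were rarely called. The arrays read bulk tissue, in which fewer cells of a type and less RNA per cell cannot be told apart. Of 38 endothelial and mural genes, 0 rose and 22 fell (1 and 18 without wild-type mice 1 and 2). That is 57.9% of them, against 10.7% of all genes called lower, and their median change was -0.479. The list mean was -0.42 to -0.07 in line 20b and 0.13 to 0.29 in wild type, without overlap. Pecam1, an adhesion molecule of endothelium, read 10.01, 10.46 and 10.65 in line 20b, against 10.99, 11.12 and 11.51 in FVB wild type (log2 change -0.73, SE 0.14, adjusted p = 0.000891), Tek, an angiopoietin receptor, read 10.42, 10.71 and 10.95 in line 20b, against 11.19, 11.56 and 11.83 in FVB wild type (-0.82, SE 0.11), and Cdh5, VE-cadherin, fell by 0.71 (SE 0.20). The pericyte gene Rgs5 was not called at its brightest probe set (-0.27, SE 0.10), though its adjusted p was 0.0447 without wild-type mouse 2 and 0.045 without wild-type mouse 5. Another Rgs5 probe set was called lower without overlap (-0.75, SE 0.17, adjusted p = 0.0035), and the one at -0.14 was not called. Of 28 adipocyte genes, 0 rose and 11 fell, 6 fell without either of wild-type mice 1 and 2, and 4 without both. With all mice that is 39.3%, against 10.7% of all genes called lower. Adipoq, adiponectin, read 10.05, 10.37 and 10.94 in line 20b, against 11.02, 11.60 and 13.96 in FVB wild type (log2 change -1.75, SE 0.47, adjusted p = 0.0129), and -0.97 with an adjusted p of 0.0691 without those 2 mice. The list mean was -0.90 to -0.17 in line 20b, 1.29 and 1.56 in wild-type mice 1 and 2, and -0.31 to 0.21 in the other 4. Their part in the falls of the fatty acid genes was not tested. Of 31 macrophage and leukocyte genes, 1 rose, Lgals3 (0.96, SE 0.29), and 1 fell, Cd74 (-0.66, SE 0.17). These are 6.45% of the list, below the 19.8% of all genes. The call of Lgals3 was lost without line 20b mouse 3 (adjusted p = 0.0534) or line 20b mouse 6 (0.0523), and that of Cd74 without wild-type mice 1 and 2 (0.0781). The macrophage genes C1qa (-0.05, SE 0.20) and Cd68 (0.96, SE 0.40) were not called. Of 33 genes of the interferon response, 0 rose and 8 fell (1 and 5 without those 2 mice), 24.2%, against 19.8% of all genes. B2m, the light chain of MHC class I, read 13.57, 13.90 and 13.95 in line 20b, against 14.04, 14.69 and 15.24 in FVB wild type (log2 change -0.85, SE 0.17, adjusted p = 0.00156), and the heavy chains H2-K1 and H2-D1 fell by 0.78 (SE 0.16) and 0.75 (SE 0.15). MHC genes are close relatives, so probes may read more than 1. Eif2ak2, a sensor of double-stranded RNA, was not called (-0.02, SE 0.14).

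Connective tissue genes were mixed. Called were 25% of the matrix genes, 43.5% of the tendon and fascia genes and 23.5% of the proteases and inhibitors. The shares were 17.6% for nerve and Schwann cell genes, 20% for blood genes and 31.25% for fibre identity genes. Over all genes 19.8% were called, 9.09% higher and 10.7% lower. Of 48 matrix genes, 5 rose and 7 fell (5 and 4 without wild-type mice 1 and 2), and Col1a1 (-0.19, SE 0.22) and Col3a1 (0.22, SE 0.19), the main fibrous collagens, were not called. Col24a1, a minor fibrillar collagen, read 6.71, 8.31 and 8.52 in line 20b, against 3.68, 5.14 and 5.86 in FVB wild type (log2 change 3.04, SE 0.51, adjusted p = 0.000293), Bgn, biglycan, rose by 0.68 (SE 0.14), and Col4a5, of basement membranes, fell by 1.20 (SE 0.27), and by 0.80 without wild-type mice 1 and 2, while the probe set that is brightest in these mice was not called (-0.02). Of 23 tendon and fascia genes, 5 rose and 5 fell (4 and 4 without those 2 mice; 3 fell without line 20b mouse 1). Cilp, a matrix protein of cartilage and tendon, read 12.38, 12.75 and 13.39 in line 20b, against 8.28, 8.66 and 9.34 in FVB wild type (log2 change 4.08, SE 0.23, adjusted p = 1.04e-09), and Tppp3, a tubulin-binding protein of tendon sheath, read 13.26, 13.42 and 13.62 in line 20b, against 9.91, 11.36 and 11.64 in FVB wild type (log2 change 2.27, SE 0.21, adjusted p = 4.9e-07). Both stood above all wild-type mice, while the tendon markers Tnmd (-0.09, SE 0.20), Fmod (-0.26, SE 0.23) and Comp (0.28, SE 0.21) were not called. Ogn, osteoglycin, fell by 0.92 (SE 0.17), and Pi16, of fibroblasts, by 1.21 (SE 0.16). Of 34 matrix proteases and inhibitors, 1 rose, Mmp2 (0.53, SE 0.15; adjusted p = 0.0526 without line 20b mouse 6), and 7 fell (1 and 4 without those 2 mice, and 4 fell without wild-type mouse 1 alone), among them the inhibitor Timp3 (-0.70, SE 0.13). Of 17 nerve and Schwann cell genes, 0 rose and 3 fell (1 and 1 without them), with Mbp, a myelin protein, at -1.03 (SE 0.32). The call of Mbp was lost without any 1 of line 20b mice 1, 4 and 6 or wild-type mice 1 and 4 (adjusted p up to 0.0635). Its other probe sets were called lower, at -0.48 to -1.02, except the one at -0.66, which was not called. Of 5 blood genes 1 fell. Of 16 fibre identity genes, 2 rose and 3 fell, each by under 0.5 on the log2 scale, and of 3 sex-linked genes none was called.

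Immediate-early genes were called at 18.2% and clock genes at 13.04%, against the 19.8% of all genes. Of 33 immediate-early genes, 5 rose and 1 fell (4 and 0 without wild-type mice 1 and 2), and 3 rose without any 1 of line 20b mice 1, 5 and 6 or wild-type mouse 2. Fos read 11.93, 12.66 and 13.39 in line 20b, against 9.18, 10.07 and 12.72 in FVB wild type (log2 change 2.07, SE 0.51, adjusted p = 0.0068), with overlap, and Jun rose by 0.55 (SE 0.15), while Egr1 was not called (-0.12, SE 0.43). Of 23 clock genes, 1 rose and 2 fell (1 and 1 without those 2 mice), with Bhlhe41, a repressor, at 0.97 (SE 0.19) and Rora, an activator, at -0.40 (SE 0.07). Dbp (0.16, SE 0.27) and Per2 (0.32, SE 0.18), outputs of the clock, were not called.

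Line 41 shows where line 20b stands apart from a second CUGexp line. Of the 12955 genes, 760 differed between the lines (5.87%), 454 higher and 306 lower in line 20b. Lower in line 20b than in line 41, with the difference as line 20b minus line 41, were Kcnab1 (-2.65, SE 0.34), Smox (-1.71, SE 0.24), Acvr2a (-1.23, SE 0.15), Igfbp5 (-1.01, SE 0.14), Pdlim7 (-1.15, SE 0.13) and Celf2 (-0.42, SE 0.11). Cilp was higher in line 20b by 1.17 (SE 0.23), Atp1b4 by 1.84 (SE 0.50), Meg3 by 2.92 (SE 0.30) and Peg3 by 1.05 (SE 0.15). Sln (0.42, SE 0.65), Uchl1 (-0.10, SE 0.48), Mustn1 (0.36, SE 0.30), Mybph (0.51, SE 0.24), Actc1 (0.21, SE 0.18) and Hspb7 (0.76, SE 0.24) were not called between the lines. Mreg, melanoregulin, was the largest difference (9.02, SE 0.10), and against wild type it rose in line 20b by 0.64 (SE 0.10), so the gap lies mostly on the side of line 41, which averaged 6.12.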

How the data were processed

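Total RNA of quadriceps was hybridised to 1-colour Affymetrix arrays of types 430A and 430B, 1 of each per mouse, per the labels. The authors deposited intensities on a linear scale, 1 per probe set, background-corrected and normalised with GCRMA, per the submitters' processing notes, and its version and settings are not given in the sources used here. Intensities were put on the log2 scale as deposited. Of 45037 probe sets, 34945 carried 1 gene symbol in GEO's platform annotation, 932 several and 9160 none. Each of 18193 named genes was represented by its brightest probe set over all arrays, and 12955 passed the filter, at least 6 mice at or above 5 on the log2 scale, which is an intensity of 32. Matching of the 430A and 430B arrays by number was checked on 1930 genes read by both, and in 9 of the 12 mice the own number correlated best.

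The 18 mice of line 20b, line 41 and FVB wild type were fitted together by linear models (limma 3.58.1 under R 4.3.3), the spread being moderated by eBayes with a trend, and two-sided p-values had Benjamini-Hochberg adjustment over all genes. This limma fit gives every change, standard error and adjusted p in the text. A gene is called at an adjusted p under 0.05. Where all mice of a group were under 32, the fold is a bound against 32. Where only some mice were, the change uses their values as deposited, so its size is less certain. The number of arrays limits the precision. Named are the largest called changes overall and in each of 46 gene lists, marker genes of each list, and the largest differences from line 41, shortened from the bottom of each order. The members and lists were chosen with earlier results of these data known. Other scalings, filters, probe-set choices, fits and left-out mice were tried.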

Additional observations from a re-analysis of the deposited data

Results flagged for a closer look

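In each group of 6 mice, the highest or lowest value was set against the other 5, and a mouse was noted where its gap to the nearest of them took more than 0.625 of the group's whole range. Of 426 groups looked at, 32 had such a mouse (7.51%), and chance alone gives about 1 group in 20. Line 20b mouse 3 made up 10 of the 32 and line 20b mouse 1 made up 5. Values are log2 intensities, and the range of the other 5 mice of the group stands in parentheses.

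Line 20b mouse 3 was high in 4 stretch genes: Ankrd1 at 14.89 (10.56 to 11.05), Flnc at 14.28 (13.04 to 13.44), Lmcd1 at 14.45 (12.82 to 13.34) and Mybph at 13.92 (12.88 to 13.14). Its mean over the stretch list was 0.83, against 0.12 to 0.27 in the other 5 line 20b mice. It was also high in Cdkn1a at 12.86 (10.49 to 11.34), Hspb3 at 14.28 (13.79 to 13.86) and Mirg at 10.27 (6.60 to 7.84), and low in Col24a1 at 6.71 (8.07 to 8.52) and Fbxo32 at 11.07 (12.11 to 12.57).

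Wild-type mouse 3 was high in 3 of the same stretch genes: Ankrd1 at 14.25 (7.45 to 9.58), Flnc at 13.22 (11.64 to 11.94) and Lmcd1 at 13.25 (10.89 to 11.77). The mice numbered 3 of both groups thus lay high in Ankrd1, Flnc and Lmcd1, and the labels give nothing that the 2 mice share.

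Line 20b mouse 1 was low in Aqp7 at 6.65 (7.57 to 7.92), Dkk3 at 7.55 (8.52 to 8.97), Pecam1 at 10.01 (10.44 to 10.65), Psmb8 at 6.34 (6.59 to 6.71) and Rgs5 at 14.47 (14.63 to 14.71). Line 20b mouse 2 was low in Camk2a at 10.63 (11.05 to 11.25). Line 20b mouse 4 was low in Chrng at 7.49 (8.31 to 8.45) and Lmod2 at 14.55 (14.91 to 15.12). Line 20b mouse 5 was high in Fbp2 at 13.49 (12.64 to 12.88), Ppp3cc at 10.58 (9.91 to 10.10) and Rora at 13.52 (13.22 to 13.32). Line 20b mouse 6 was low in Gdap1 at 6.67 (7.85 to 8.52). Wild-type mouse 1 was high in Mrps35 at 11.42 (11.09 to 11.21). Wild-type mouse 2 was low in Slc38a4 at 11.67 (12.24 to 12.51) and Tppp3 at 9.91 (11.21 to 11.64). Wild-type mouse 4 was low in Lgals3 at 8.46 (9.68 to 10.32). Wild-type mouse 5 was low in Eif2ak2 at 9.998 (10.30 to 10.48) and Rian at 6.18 (6.76 to 7.08). Wild-type mouse 6 was high in Pecam1 at 11.51 (10.99 to 11.14).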

How the results depend on the processing

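The count of genes called between line 20b and FVB wild type was 2566, with 1177 higher and 1389 lower. Leaving out 1 mouse gave 2206 to 2499 calls, 979 to 1109 higher and 1128 to 1403 lower. Testing every probe set separately gave 4310 called, 1830 higher and 2480 lower. A threshold of 0.01 on the adjusted p gave 1456, 718 and 738, and a log2 change of at least 1 gave 306, 171 and 135. The other alternatives gave 2070 to 2775 calls. The share of calls that were higher was 45.9%, 56% after quantile normalisation and 53.8% after the shift to 1 median. Between line 20b and line 41, 760 genes were called, 889 after quantile normalisation, 627 without the filter and 525 to 667 without 1 line 20b mouse.

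Of the 207 genes in the text, 172 were called, and 160 of these also without wild-type mice 1 and 2. Ldb3 turned direction with the mean of its probe sets (0.089, adjusted p = 0.384, against -0.42), since its probe sets oppose each other. The mean of probe sets also lost the calls of Aqp4, Atp1b2, Clcn3, Fbxo31, Got2, Mmp2, Nfix and Rbfox2. The fit of the 12 mice alone lost those of Aqp4, Lipe, Mdm2, Mirg and Psmb8. In 19 lists with a count under 4, leaving out 1 mouse moved it by over 1.5 times, by at most 3 genes.

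Same-numbered mice of the 2 groups deviated together with correlations of -0.192 to 0.237, and 2 of 6 correlated best with their own number. The labels say nothing of a pairing, and these few correlations cannot exclude it, so the mouse number was kept out of the main fit and used as a block in an alternative. With the replicate block 2587 genes were called, 1185 higher and 1402 lower, and of the genes in the text Ankrd1 (1.87, adjusted p = 0.0094), Cd68 (adjusted p = 0.0499) and Mbnl2 (adjusted p = 0.0278) were newly called. The number of mice limits what small changes could be called.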

Other observations

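Of 5711 genes read by more than 1 tested probe set, 58 (1.02%) had probe sets called in opposite directions in line 20b against FVB wild type, and in 11 of them both changes were at least 0.5 on the log2 scale. The genes named here were chosen after their values were seen. Dtna, alpha-dystrobrevin of the dystrophin complex, had 1 probe set at 12.48, 12.63 and 12.80 (lowest, median and highest) in line 20b, against 11.47, 11.74 and 11.87 in FVB wild type (log2 change 0.91, SE 0.08, adjusted p = 3.43e-07, limma). Another read 10.88, 10.99 and 11.21 in line 20b, against 11.66, 11.73 and 12.18 in FVB wild type (log2 change -0.83, SE 0.12, adjusted p = 7.63e-05). Neither probe set overlapped between the groups.

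Ighm, the heavy chain of immunoglobulin M, read 13.08 to 13.80 in line 20b and 10.70 to 12.22 in FVB wild type at 1 probe set (log2 change 2.00, SE 0.27). At another it read 11.51 to 12.22 in line 20b and 13.23 to 13.75 in FVB wild type (log2 change -1.51, SE 0.12). Tmod3, a tropomodulin that caps thin filaments, had 1 probe set at 0.73 (SE 0.14) and 3 called lower, at -0.54, -0.56 and -0.91. Nin, ninein of the centrosome, had a probe set at 1.32 (SE 0.15) and others at -0.53 and -0.27. Synrg, a clathrin adaptor partner, read 1.50 (SE 0.26) and -0.51 (SE 0.16). Atxn2, an RNA-binding protein, read 0.61 (SE 0.16) and -0.74 (SE 0.08). The other 5 were Brwd1, Fbxl17, Reep5, Asrgl1 and Slc16a10. Of the muscle transcripts spliced by MBNL1, Ldb3, Capzb and Dtna were among the 58. What the probe sets of these genes cover in the transcripts was not tested.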
